A study of Mus musculus with 16 samples.

Results

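The genes described here are 10 transcription factors of the AP-1 and immediate early groups: Fos, Fosb and Fosl2 of the FOS family, Jun, Junb and Jund of the JUN family, the related bZIP factors Atf3 and Batf, and the zinc finger factors Egr1 and Egr2. They were taken by their symbols from the deposited table, which lists 22287 genes, and all 10 were found. RNA-seq was done on macrophages grown from the bone marrow of C57BL/6J mice of 8 weeks, which were kept for 7 days in GM-CSF (GM) or M-CSF (M), the 2 growth factors most used to make such cells. The dishes were tissue culture treated (TC) or not (noTC), and the cells were left at steady state with vehicle or challenged for 3 h with LPS, a bacterial cell wall component that is sensed by TLR4. This gave 8 groups of 2 libraries, named by growth factor and dish (GM-TC, M-TC, GM-noTC, M-noTC), with the ending -LPS for the challenged ones. The study calls the libraries of a group biological replicates. Neither it nor the labels say whether they came from separate mice or from separate cultures of the same marrow, and p-values measure the spread between these libraries.

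AP-1 is a dimer of a FOS family protein, or of a relative such as BATF or ATF3, with a JUN family protein, which binds short palindromic DNA sites through its bZIP domain. Immediate early genes are switched on without new protein synthesis when MAP kinases and the serum response factor SRF or CREB are activated, and their transcripts are mostly short-lived, so that a level at one time point is a snapshot of a fast course. In macrophages LPS activates the MAP kinases and NF-kappaB, and AP-1 factors act with NF-kappaB at cytokine genes, whereas EGR factors take part in myeloid differentiation.

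The stretch just upstream of the start site is where SRF, CREB and AP-1 themselves are known to act on several of these genes. Of the 10 genes, 9 had a promoter window in RefSeq (build GRCm38.p6); Egr1 had none. The 120 bases before the start are given 5′ to 3′ for 4 genes that stand for the different responses described further on: Fos and Egr2, which fell upon LPS challenge in GM cells, Junb, which rose in every cell state, and Jun, whose level moved least. Capitals mark every match, on either strand, to the motifs that were searched in the 250 bases upstream: TGACGTCA and its shorter form TGACG, which reads CGTCA on the other strand, the AP-1 site TGAGTCA, its longer variant TGACATCA, the EGR motif GCGNGGGCG, and the CArG box bound by SRF.
Fos, chr12:85473770-85473889, plus strand: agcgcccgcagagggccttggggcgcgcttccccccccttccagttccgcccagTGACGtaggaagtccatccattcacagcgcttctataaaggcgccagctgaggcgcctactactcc
Jun, chr4:95052223-95052342, minus strand: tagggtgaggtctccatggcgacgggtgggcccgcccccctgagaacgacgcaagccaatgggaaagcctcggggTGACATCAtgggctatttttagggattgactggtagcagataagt
Junb, chr8:84978749-84978868, minus strand: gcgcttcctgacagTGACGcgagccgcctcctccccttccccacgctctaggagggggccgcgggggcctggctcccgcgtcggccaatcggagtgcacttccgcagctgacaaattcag
Egr2, chr10:67537749-67537868, plus strand: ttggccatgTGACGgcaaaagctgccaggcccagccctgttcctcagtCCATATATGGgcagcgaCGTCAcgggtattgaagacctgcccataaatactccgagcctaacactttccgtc
The RefSeq starts of Fos, Jun and Egr2 (1 of 5 windows) are principal starts in GENCODE M21, so these windows end just before them. Those of Fosb, Atf3, Junb and Batf lie within 6 to 51 bases of the principal start. The RefSeq start of Fosl2 lies 671 bases from it, with all 120 bases before that start inside a GENCODE exon. That of Jund lies 1210 bases from it, so these 2 windows do not lie next to the principal start. The Egr2 window shown held a CArG box, 72 to 63 bases before the start, a motif found in 1.47% of 32851 RefSeq windows of 250 bases upstream. Other Egr2 windows held a CArG box too. All shares of windows given here are for 250 bases. The Jun window held TGACATCA, 45 to 38 bases before the start, a motif in 2.93% of windows. TGACG, in 17.8% of windows, lay in the Fos, Junb and Egr2 stretches, and also within 250 bases of the starts of Fosb, Atf3 and Batf. The EGR motif, in 4.70% of windows, lay upstream of the RefSeq starts of Fosb and Fosl2. TGAGTCA, the classical AP-1 site, in 4.46% of windows, and the full TGACGTCA, in 1.55%, had no match in the window of any of the 9 genes. These matches are descriptions of the letters only.

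Levels are given as CPM (counts relative to the library's total), scaled with edgeR's TMM factors unless library size alone is named, with the 2 libraries of a group side by side. Total counts lay between 17527802 and 31458363 per library, and 3 counts corresponded to between 0.0697 and 0.174 scaled CPM, a floor that covers counting error only. The expression filter passed 9 of the 10 genes. Fosb, a FOS protein known from neurons and bone, did not pass: it had 61 counts in all 16 libraries together, with 0 to 13 in each, and its highest counts were the 13 and 10 of M-noTC. No fold change is given for Fosb at this depth. In some fits with 1 library left out it did pass the filter, and it was called higher in M-noTC than in GM-noTC without the second GM-noTC or the second M-noTC library. Egr1 was the lowest of the tested genes, with 19 to 178 counts per library, so its values are the least precise. Atf3 had the highest level of the 10 genes per kilobase of exon in every group, between 43.2 CPM per kb in M-TC and 250.8 CPM per kb in M-TC-LPS (means, n = 2). Egr2 and Batf ranged most between group means, 23.1-fold and 20.8-fold, and Jun ranged least, 1.52-fold, from 77.0 CPM in GM-noTC-LPS to 117 CPM in GM-TC.

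**Figure D1:**
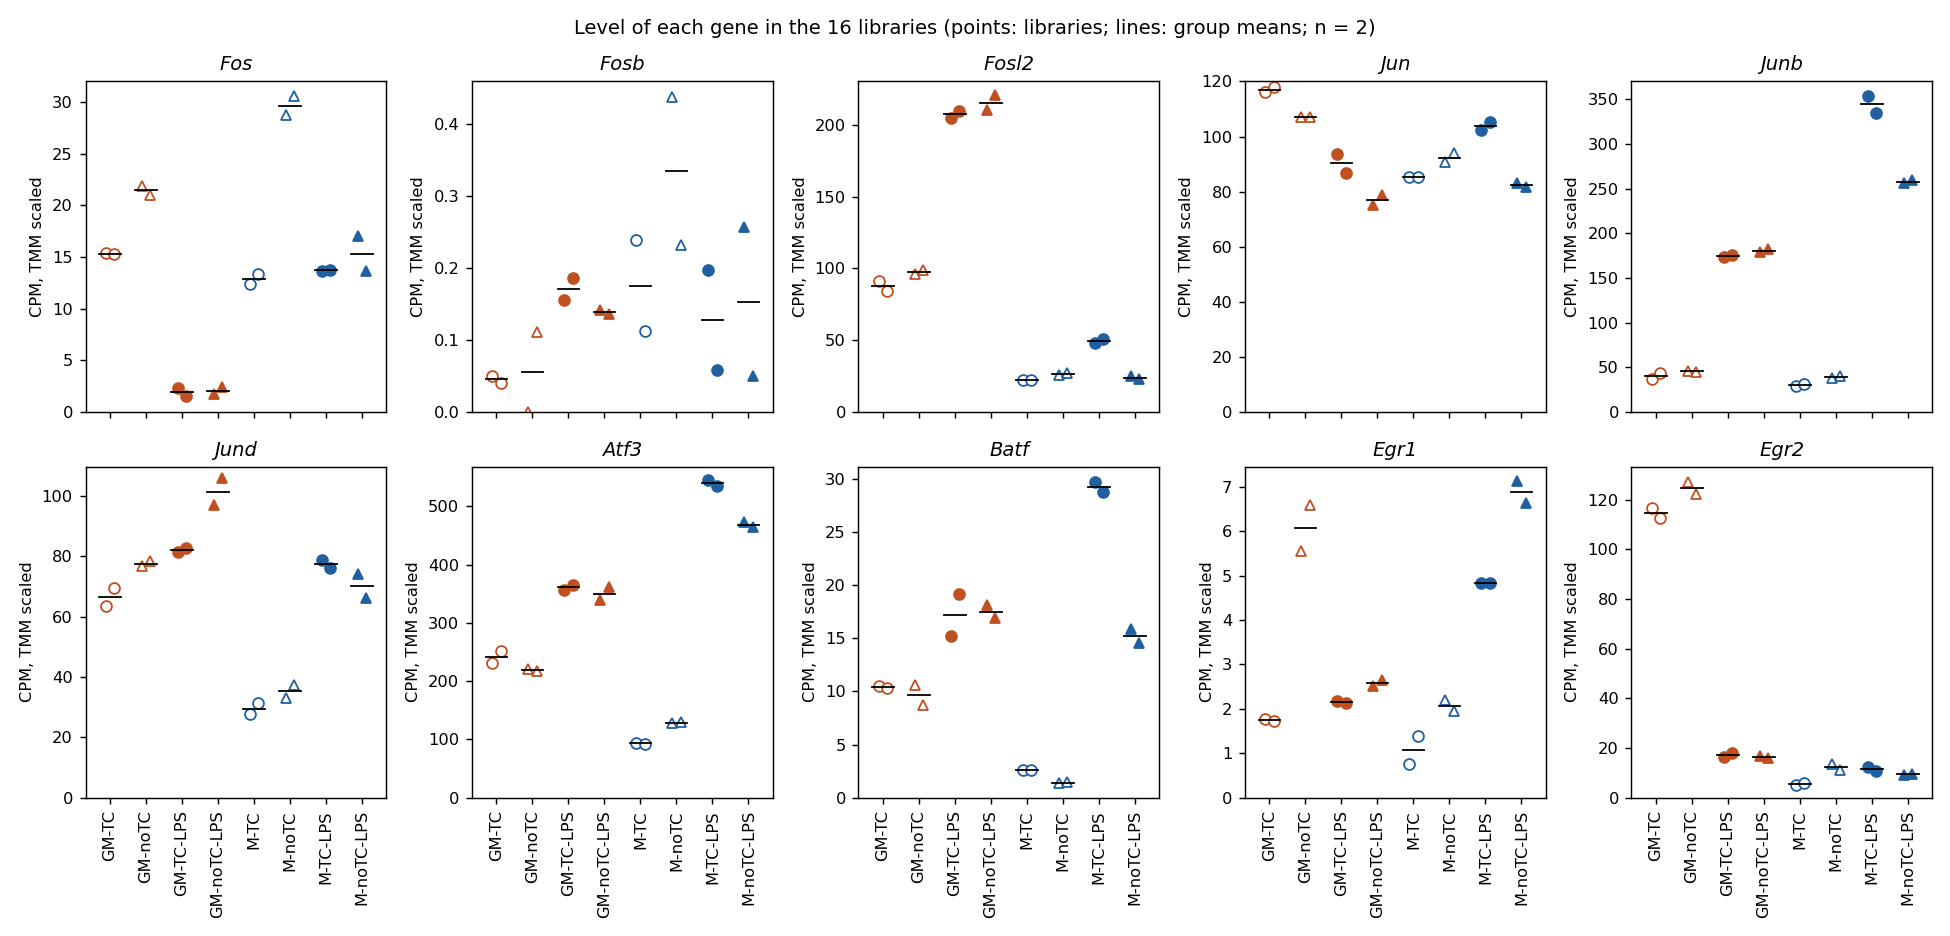
Each panel shows 1 gene, with its level in TMM scaled CPM on the vertical axis (scales differ between panels) and the 8 groups on the horizontal axis. Points are the 16 libraries (circles TC, triangles noTC, open steady state, filled LPS, orange GM, blue M) and lines are group means. Fos and Egr2 fall upon LPS challenge in GM cells, Junb and Atf3 are highest in M cells upon LPS challenge, and Fosb stays under 0.45 CPM everywhere.

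Several facts of the libraries bear on these values. Marker sums are in CPM by library size alone. The 5 macrophage markers summed to 17730 to 45230 CPM, whereas 4 lymphocyte markers stayed at or under 0.666 CPM. Markers of neutrophils (14.2 to 35.3 CPM) and dendritic cells (15.97 to 56.4 CPM) were higher in the GM libraries than in the M libraries (0.452 to 1.73 and 0.362 to 1.14 CPM), and mast cell markers were 14.5 to 37.1 against 2.53 to 11.4 CPM. Of the 6 mast cell markers 4 or 5 had counts in each GM group and 1 to 3 in each M group. In M-noTC the whole mast cell sum came from 1 marker, Kit. Stromal markers were 2.16 to 13.4 CPM in GM and 1.495 to 6.26 CPM in M libraries. All 10 cardiomyocyte markers had counts in the steady state TC groups, where they summed to 27.5 to 93.6 CPM, against 0.374 to 1.32 CPM elsewhere, where Myh6 was at 0. The part of these RNAs in the differences below was not tested, and in bulk samples fewer cells of a type and less RNA per cell cannot be told apart. The 2 GM-TC libraries differed from each other more than those of other groups (chi-square per gene of 12.5, against 1.91 to 5.13). TMM factors ranged from 1.11 to 1.39 in the vehicle libraries and from 0.778 to 0.842 in the LPS libraries. Scaled by library size alone, the median log2 change of all genes was -0.53, -0.54, -0.83 and -0.73 in the LPS responses. The order is GM cells on TC and noTC dishes, then M cells on TC and noTC dishes. With TMM these medians were -0.05, -0.03, -0.01 and -0.01. Between M and GM at steady state the median by library size alone was 0.29 on either dish. Small changes in all these comparisons therefore depend on the scaling.

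The first comparison is between LPS and vehicle within each growth factor and dish. With TMM scaling, Junb, Atf3, Batf and Jund were upregulated upon LPS challenge in all 4 cell states, Fos and Egr2 were strongly downregulated in GM cells, and Egr1 was upregulated in M cells. Genes were called by edgeR's quasi-likelihood test when the BH-adjusted p was under 0.05. Of the 9 tested genes 5 rose and 3 fell in GM-TC, where 67% of all tested genes were called, 32.8% as higher and 34.2% as lower. GM-noTC cells had 5 that rose and 4 that fell (67.7% of all genes called, 33.6% higher and 34% lower). In M-TC 8 rose, none fell by this test and Fos was not called (74% called, 37.6% higher and 36.4% lower). M-noTC cells had 5 that rose and 3 that fell (72.3% called, 36.4% higher and 35.9% lower). Scaled by library size alone, the calls were 2 higher and 4 lower in GM-TC and 6 higher and 2 lower in M-TC. Jund was then called as lower in GM-TC (-0.18, adjusted p = 0.032) and was not called in GM-noTC (-0.12, adjusted p = 0.13). Atf3 and Batf were then not called in GM-TC. The median log2 change of the 9 genes was 0.30 and 0.39 in GM cells on TC and noTC dishes and 1.40 and 0.99 in M cells, beside -0.05, -0.03, -0.01 and -0.01 over all tested genes. The LPS, dish and growth factor comparisons reuse the same 8 groups and are not independent of each other.

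**Figure D2:**
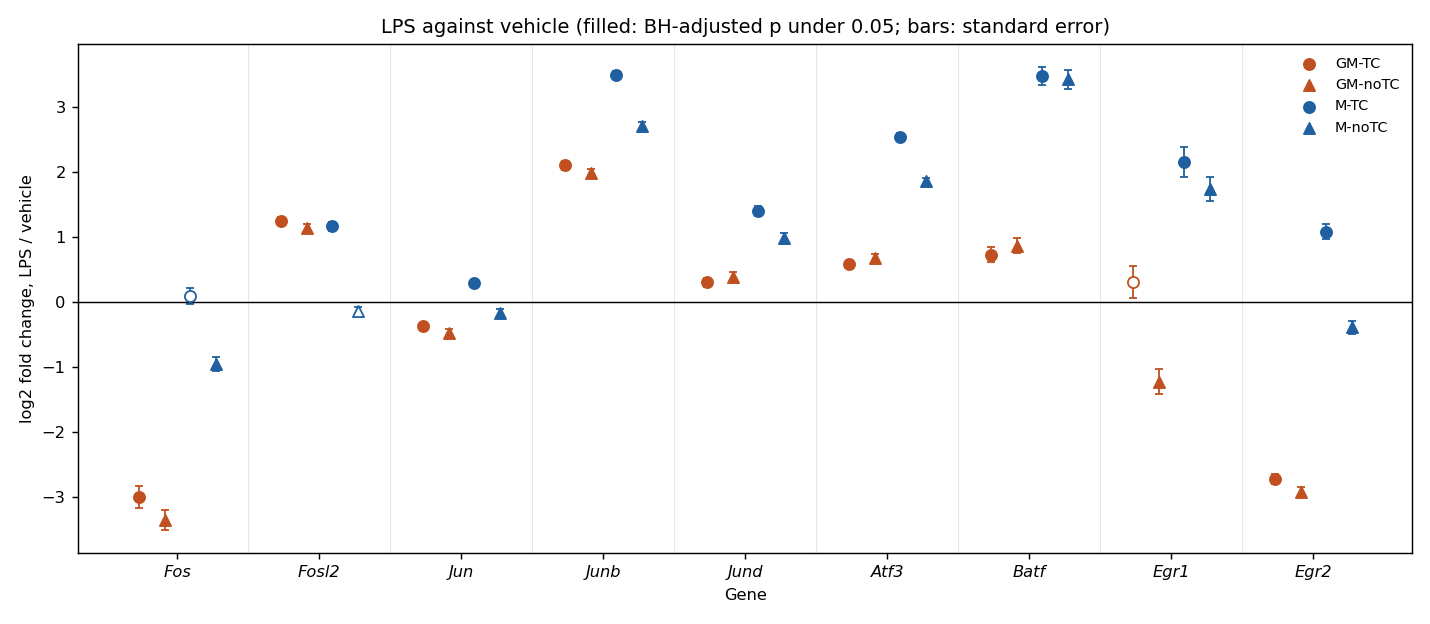
The log2 fold change of LPS over vehicle is plotted for the 9 tested genes in the 4 cell states (orange GM, blue M, circles TC, triangles noTC), with the standard error as bars and filled symbols where the BH-adjusted p was under 0.05. Fos and Egr2 lie near -3 in GM cells, and Junb, Atf3 and Batf lie higher in M than in GM cells. With library size only, Jun and Fos in M-TC, Jund in both GM states and Egr1 in GM-TC change sign.

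In the FOS family, Fos and Fosl2 went opposite ways in GM cells. Fos, the founding FOS protein, had 15.4 and 15.3 CPM in GM-TC and 21.9 and 21.03 CPM in GM-noTC at steady state. Upon LPS challenge it had 2.33 and 1.53 CPM in GM-TC-LPS and 1.75 and 2.42 CPM in GM-noTC-LPS, far under every steady state library. Fos fell by 3.00 ± 0.17 (SE) on the log2 scale in GM-TC (adjusted p = 3.4e-13) and by 3.36 ± 0.15 in GM-noTC (adjusted p = 9.1e-15). In M-TC cells Fos had 12.4 and 13.4 CPM with vehicle and 13.7 and 13.8 CPM with LPS, a change of 0.09 ± 0.12 that was not called (adjusted p = 0.50) and that turns to -0.74 with library size only (adjusted p = 7.8e-06). M-noTC cells began higher, at 28.7 and 30.6 CPM, and had 17.0 and 13.6 CPM with LPS, a log2 change of -0.96 ± 0.10 (adjusted p = 3.4e-08).

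Fosl2 encodes FRA-2, a longer-lasting FOS relative without the strong activation domain of FOS. It had 91.6 and 84.1 CPM in GM-TC and 96.4 and 99.0 CPM in GM-noTC, and rose to 205 and 209.7 CPM in GM-TC-LPS and 210.4 and 221 CPM in GM-noTC-LPS. The log2 increases were 1.24 ± 0.06 (adjusted p = 1.5e-14) and 1.14 ± 0.06 (adjusted p = 5.2e-14). M cells held less Fosl2: 22.1 and 22.2 CPM in M-TC became 48.4 and 50.6 CPM in M-TC-LPS, an increase of 1.16 ± 0.07 (adjusted p = 8.3e-13). M-noTC cells had 25.7 and 26.9 CPM with vehicle and 24.9 and 22.8 CPM with LPS, so the M-TC libraries alone among the M cells moved up. The change in M-noTC, -0.14 ± 0.07, was not called (adjusted p = 0.075), and it was -0.21 without the first M-noTC-LPS library. This change was called as a fall with library size only, at -0.87 (adjusted p = 3.7e-10). It was also called with only the libraries of the comparison, at -0.17 (adjusted p = 0.040). Across the M states the Fosl2 response therefore differed by dish, by -1.30 ± 0.10 on the log2 scale in the test of dish by LPS (adjusted p = 1.1e-08).

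In length-corrected terms the FOS family changed its makeup. In GM cells at steady state Fos made up 41.8% ± 1.3 (SD, n = 2) of the summed FOS family level per kb on TC dishes and 47.5% ± 1.2 on noTC dishes. With LPS it made up 3.69% ± 1.1 and 3.81% ± 0.71. Fosl2 then made up 96.2% and 96.1% of it. Fos kept the larger share in M cells, with 70.3% and 82.0% on TC and noTC dishes at steady state and 53.2% and 72.3% with LPS. Fosb made up at most 0.505% of the family in any library. These shares are taken within a library and do not depend on the scaling. They do depend on the exon union length, 2.35 kb for Fos and 9.68 kb for Fosl2, and the expressed transcripts may be shorter. In CPM without this correction, Fosl2 was above Fos in M-TC (22.1 against 12.9), M-TC-LPS (49.5 against 13.7) and M-noTC-LPS (23.85 against 15.3). In M-noTC Fos was above Fosl2 (29.7 against 26.3).

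Of the JUN family, Junb gave the large LPS response. JUNB is a JUN protein that often restrains JUN activity and is induced by inflammatory signals. Junb had 37.4 and 43.7 CPM in GM-TC and 46.2 and 44.9 CPM in GM-noTC, against 173 and 176 CPM in GM-TC-LPS and 179 and 182 CPM in GM-noTC-LPS. M cells began lower, at 29.7 and 31.4 CPM in M-TC and 38.4 and 40.4 CPM in M-noTC, and ended higher, at 354 and 335 CPM in M-TC-LPS and 256 and 259 CPM in M-noTC-LPS. No LPS library overlapped with a vehicle library. On TC and noTC dishes the log2 increases were 2.10 ± 0.07 and 1.99 ± 0.06 in GM cells and 3.50 ± 0.07 and 2.71 ± 0.06 in M cells, with adjusted p-values between 1e-21 and 1.5e-17. In linear terms these are increases of 4.29-fold, 3.97-fold, 11.3-fold and 6.53-fold. GENCODE M21 places Prdx2 on the other strand over part of Junb, and since the library kit does not mark strand, reads of the 2 genes cannot be told apart where they overlap.

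Jun, the founding member of the JUN family and the partner of FOS in the classical dimer, moved little. Its levels were 116 and 118 CPM in GM-TC, 107 and 107 CPM in GM-noTC, 93.6 and 86.9 CPM in GM-TC-LPS, and 75 and 79.0 CPM in GM-noTC-LPS. Jun thus fell in GM cells, by 0.37 ± 0.05 (adjusted p = 3e-06) and 0.47 ± 0.05 (adjusted p = 1e-07) on the log2 scale on TC and noTC dishes. The M cells had 85.2 and 85.4 CPM in M-TC, 90.6 and 94.1 CPM in M-noTC, 103 and 105 CPM in M-TC-LPS, and 83.1 and 81.7 CPM in M-noTC-LPS. In M-TC Jun rose by 0.28 ± 0.05 (adjusted p = 8.1e-05), a direction that turned to -0.54 with library size only (adjusted p = 7.1e-09). In M-noTC its change was -0.17 ± 0.05 (adjusted p = 0.010), a call that was lost without the second M-noTC library (-0.13, adjusted p = 0.12) or the second M-noTC-LPS library (-0.15, adjusted p = 0.063).

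Jund, the JUN gene usually described as constitutive, had 63.7 and 69.6 CPM in GM-TC and 76.7 and 78.5 CPM in GM-noTC, and 81.3 and 82.9 CPM and 97.0 and 106 CPM with LPS on the same dishes. These GM increases, 0.30 ± 0.07 (adjusted p = 0.0012) and 0.39 ± 0.07 (adjusted p = 6.3e-05), turned to -0.18 and -0.12 with library size only. In M cells Jund had 27.6 and 31.2 CPM in M-TC and 33.1 and 37.4 CPM in M-noTC, and rose to 78.9 and 76.2 CPM and 74.0 and 66.4 CPM. Its log2 increases there were 1.40 ± 0.08 (adjusted p = 3.6e-13) and 0.99 ± 0.08 (adjusted p = 9e-11). The M-TC-LPS libraries thus lay above those of GM-TC, whereas the M-noTC-LPS libraries lay below those of GM-noTC. By library size alone the M means with LPS were under the GM means at steady state on either dish. They were 60.75 CPM in M-TC-LPS against 74.54 CPM in GM-TC, and 58.49 CPM in M-noTC-LPS against 87.35 CPM in GM-noTC.

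By length-corrected level Junb became the leading JUN transcript upon LPS challenge. At steady state its share of the JUN family on TC and noTC dishes was 18.7% ± 1.1 and 19.8% ± 0.47 in GM cells, and 23.0% ± 0.072 and 25.5% ± 0.28 in M cells (SD, n = 2). With LPS it was 49.5% ± 0.57 in GM-TC-LPS, 48.1% ± 1.1 in GM-noTC-LPS, 65.4% ± 0.77 in M-TC-LPS and 62.2% ± 1.5 in M-noTC-LPS. Jun went from between 33.6% and 46.4% of the family in the steady state groups to between 14.3% and 18.4% in the LPS groups. The summed family level rose from 94.3 to 153 CPM per kb in GM-TC and from 57.7 to 229 CPM per kb in M-TC (means, n = 2).

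**Figure D3:**
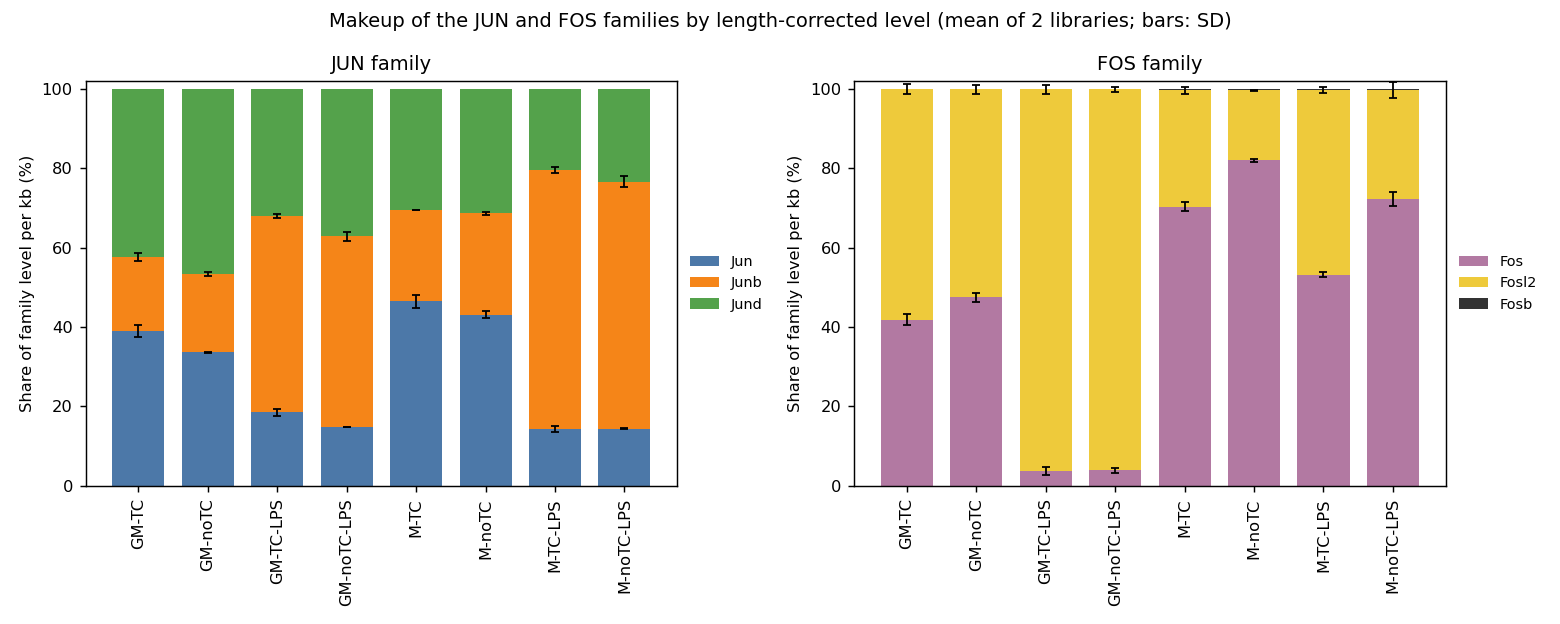
Stacked bars show the share (%) of each gene in the length-corrected level of the JUN family (left) and the FOS family (right) in the 8 groups, as means of 2 libraries with the SD as bars. Junb takes 48.1% to 65.4% of the JUN family in the LPS groups, and Fos takes under 4% of the FOS family in GM cells with LPS and over 50% in M cells.

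Among the related bZIP factors, ATF3 is a stress-induced factor known to limit cytokine genes downstream of TLR4. Atf3 had 232 and 251.1 CPM in GM-TC, 220.3 and 217 CPM in GM-noTC, 356 and 366 CPM in GM-TC-LPS, and 339 and 362 CPM in GM-noTC-LPS. The M cells had 93.4 and 92.5 CPM in M-TC, 129 and 129 CPM in M-noTC, 546 and 535 CPM in M-TC-LPS, and 473 and 464 CPM in M-noTC-LPS. Atf3 was thus lower in M than in GM cells before LPS and higher after it. Its log2 increases were 0.58 ± 0.05 (adjusted p = 1.1e-09) and 0.68 ± 0.05 (adjusted p = 7e-11) in GM-TC and GM-noTC, and 2.54 ± 0.05 (adjusted p = 5.5e-21) and 1.86 ± 0.05 (adjusted p = 8.4e-19) in M-TC and M-noTC. The GM-TC increase was 0.10 with library size only (adjusted p = 0.068).

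BATF is a bZIP protein without an activation domain of its own that pairs with JUN proteins and acts with IRF4 or IRF8. Batf had 10.5 and 10.4 CPM in GM-TC and 10.6 and 8.69 CPM in GM-noTC, and 15.2 and 19.2 CPM and 18.2 and 16.9 CPM with LPS. It was lower in M cells at steady state, with 2.63 and 2.62 CPM in M-TC and 1.38 and 1.44 CPM in M-noTC, and then had 29.8 and 28.8 CPM in M-TC-LPS and 15.9 and 14.6 CPM in M-noTC-LPS. The increases in M cells, 3.48 ± 0.14 (adjusted p = 3.9e-16) and 3.42 ± 0.15 (adjusted p = 4.6e-15), equal 11.1-fold and 10.7-fold. Those in GM cells were 0.73 ± 0.12 (adjusted p = 1.2e-05) and 0.86 ± 0.12 (adjusted p = 9.4e-07). The GM-TC increase was 0.25 with library size only (adjusted p = 0.066).

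Egr1 and Egr2, zinc finger factors with a like DNA-binding domain, differed from each other in where they were found. Egr1 had 1.77 and 1.73 CPM in GM-TC and 5.54 and 6.58 CPM in GM-noTC, and upon LPS challenge 2.17 and 2.14 CPM and 2.51 and 2.65 CPM. The high GM-noTC level was thus lost with LPS, a log2 change of -1.23 ± 0.19 (adjusted p = 7.4e-06), while the change of 0.30 ± 0.25 in GM-TC was not called (adjusted p = 0.29) and was -0.18 with library size only. In M cells Egr1 had 0.758 and 1.38 CPM in M-TC and 2.19 and 1.95 CPM in M-noTC, and 4.82 and 4.82 CPM and 7.14 and 6.64 CPM with LPS. It rose there by 2.15 ± 0.23 (adjusted p = 2.2e-08) and 1.74 ± 0.19 (adjusted p = 2.4e-08).

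Egr2 was mainly a transcript of GM cells at steady state. It had 117 and 113 CPM in GM-TC and 127 and 123 CPM in GM-noTC, and 16.6 and 18.1 CPM and 16.8 and 16.01 CPM with LPS. The changes of -2.73 ± 0.08 (adjusted p = 3.2e-18) and -2.93 ± 0.08 (adjusted p = 8.4e-19) left it at 0.151 and 0.131 of its vehicle level. M cells had 5.11 and 5.73 CPM in M-TC and 13.4 and 11.2 CPM in M-noTC, and 12.3 and 10.6 CPM and 9.14 and 9.48 CPM with LPS. On TC dishes Egr2 rose in M cells by 1.08 ± 0.12 (adjusted p = 3.6e-08), and by 0.26 with library size only (adjusted p = 0.060). On noTC dishes its change was -0.39 ± 0.10 (adjusted p = 0.0019).

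Whether the LPS response depended on the growth factor was tested as an interaction. On TC dishes 8 of the 9 genes had a response that was higher in M than in GM cells and none a lower one (41.1% of all tested genes called, 23.3% higher and 17.8% lower); Fosl2 was the exception, with -0.08 ± 0.09 (adjusted p = 0.52). Scaled by library size alone, Fosl2 was called at -0.43 (adjusted p = 0.00067), which makes 8 higher and 1 lower. The differences were largest for Egr2, at 3.81 ± 0.14 on the log2 scale, Fos, at 3.09 ± 0.21, and Batf, at 2.75 ± 0.19. On noTC dishes 8 genes again had the higher response in M cells (36.2% called, 19.3% higher and 16.9% lower), led by Egr1 at 2.97 ± 0.27, and Fosl2 had the lower one, at -1.28 ± 0.09 (adjusted p = 1.8e-10). Jun, at 0.31 ± 0.08, was 0.09 with library size only (adjusted p = 0.36). The median of this difference over the 9 genes was 1.85 on TC and 1.18 on noTC dishes, beside 0.04 and 0.02 over all tested genes.

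The second comparison is between noTC and TC dishes at steady state. In M cells, Fos, Egr2 and Egr1 were about 2-fold higher on noTC dishes, Atf3, Junb, Jund and Fosl2 were slightly higher, and Batf was lower. In GM cells the dish moved Egr1 and Fos. Of the 9 tested genes 7 were higher and 1 lower on noTC dishes in M cells, where 27.2% of all genes were called, 16.1% as higher and 11.1% as lower. In GM cells 2 were higher and none lower, where 7.54% were called, 4.69% as higher and 2.85% as lower. The median log2 difference of the 9 genes was 0.37 in M cells and 0.16 in GM cells, beside 0.01 and 0 over all tested genes. In M cells the noTC libraries lay outside the TC libraries for all 9 tested genes, as they did for 66.9% of all tested genes.

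In GM cells Egr1 was 3.47-fold higher on noTC dishes, 1.79 ± 0.21 on the log2 scale (adjusted p = 3.4e-06), from under 1.8 CPM in both TC libraries to over 5.5 CPM in both noTC libraries. Fos was 0.48 ± 0.11 higher (adjusted p = 0.0059), a call that was lost without the first GM-noTC library (0.45, adjusted p = 0.078). Each of the other 7 differed by between -0.14 and 0.22 and was not called. These calls moved with the GM-TC libraries. Without the first of them Fosl2 (0.22, adjusted p = 0.016) and Atf3 (-0.20, adjusted p = 0.0076) were called too, and without the second Junb (0.28, adjusted p = 0.016) and Jund (0.29, adjusted p = 0.034). The number of genes called was then 4, against 1 without the first GM-noTC library.

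In M cells Fos was 1.20 ± 0.10 higher on noTC dishes (2.30-fold, adjusted p = 1.3e-08) and Egr2 was 1.17 ± 0.11 higher (2.25-fold, adjusted p = 3.8e-08). Egr1 was 0.93 ± 0.24 higher (adjusted p = 0.0063); its 2 M-TC libraries were wide apart, and without the first the difference was 0.56 (adjusted p = 0.16). Atf3 was 0.47 ± 0.05 higher (adjusted p = 5.3e-07) and Junb 0.37 ± 0.07 (adjusted p = 0.00027). Batf was lower on noTC dishes, by -0.89 ± 0.20 (adjusted p = 0.0019). The smaller differences of Jund (0.26 ± 0.08, adjusted p = 0.017) and Fosl2 (0.25 ± 0.07, adjusted p = 0.0090) were lost in some fits with 1 library less: Jund without the first M-TC library (0.17, adjusted p = 0.26) or the second M-noTC library (0.16, adjusted p = 0.28), and Fosl2 without the first (0.24, adjusted p = 0.075) or second M-TC library (0.25, adjusted p = 0.063) or the second M-noTC library (0.21, adjusted p = 0.11). Without the first M-TC library 5 genes were called. Jun, at 0.11 ± 0.05, was not called (adjusted p = 0.13).

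Rises on noTC dishes at steady state, in CPM by library size alone, were also set against the mean level in the libraries outside this comparison and the other TC group. Genes that were under 1 CPM in the TC group but averaged at least 100 CPM in those libraries had a median rise of 0.675% of that mean in GM cells (15 genes) and 0.600% in M cells (21 genes). The rises of Fos and Egr1 in GM cells were 51.8% and 151% of it. In M cells the rises were 225% for Fos, 33.9% for Egr1, 25.7% for Egr2, 14.9% for Atf3, 10.8% for Jund, 7.22% for Junb and 5.40% for Fosl2. Cardiomyocyte markers were present in the TC libraries of this comparison and near 0 in the noTC libraries, and their part in the result was not tested.

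**Figure D4:**
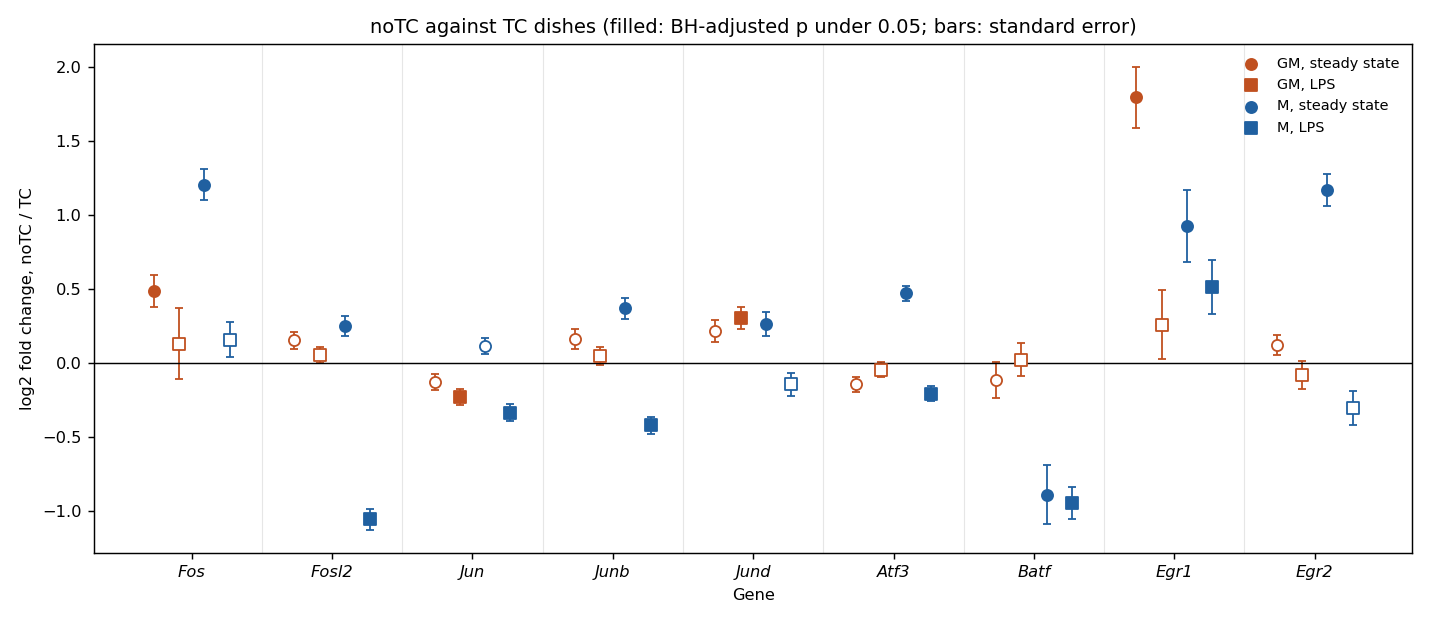
The log2 fold change of noTC over TC dishes is plotted for the 9 tested genes (orange GM, blue M, circles steady state, squares LPS), with the standard error as bars and filled symbols where the BH-adjusted p was under 0.05. At steady state the M cells lie above 0 for 8 genes and below 0 for Batf, and with LPS they lie below 0 for 7 genes. No sign of a called difference turned with the scaling by library size only.

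Upon LPS challenge Fosl2, Junb and Atf3, which had been higher on noTC dishes in M cells at steady state, were lower there, Batf was lower in both states, and Fos, Jund and Egr2 were no longer called. In all, 5 of the 9 genes were lower on noTC dishes and 1 was higher, with 23.3% of all genes called, 10.4% as higher and 12.9% as lower. Fosl2 was the most affected, at -1.05 ± 0.07 (adjusted p = 6.1e-10), followed by Batf at -0.94 ± 0.11 (adjusted p = 1.5e-06). Junb was -0.42 ± 0.06 (adjusted p = 1.4e-05), Jun -0.33 ± 0.06 (adjusted p = 0.00013) and Atf3 -0.21 ± 0.05 (adjusted p = 0.0043). The Atf3 difference was -0.12 with library size only (adjusted p = 0.084). Egr1 was the gene that stayed higher on noTC dishes, at 0.51 ± 0.18 (adjusted p = 0.044). That call did not hold without any 1 of the 4 libraries of the comparison (0.46 to 0.57, adjusted p between 0.088 and 0.20), nor with DESeq2's size factors (0.49, adjusted p = 0.052), which made the split 0 higher and 6 lower. The sixth was Egr2, which was -0.30 ± 0.11 in the fit reported (adjusted p = 0.059) and -0.40 without the second M-TC-LPS library (adjusted p = 0.040). Fos (0.16 ± 0.12) and Jund (-0.14 ± 0.08) were not called.

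In GM cells with LPS the dish left little difference. Jund was 0.31 ± 0.07 higher (adjusted p = 0.021) and Jun was lower by -0.23 ± 0.06 (adjusted p = 0.026) on noTC dishes, with 2.8% of all genes called (2.08% higher and 0.727% lower), and the other 7 genes differed by between -0.08 and 0.26. Neither call was stable when a library was left out: Jun was lost without the first GM-TC-LPS library (-0.17, adjusted p = 0.35) or either GM-noTC-LPS library (-0.19 and -0.27, adjusted p = 0.27 and 0.060), and Jund without either GM-TC-LPS library (0.29 and 0.32, adjusted p = 0.20 and 0.12) or the second GM-noTC-LPS library (0.24, adjusted p = 0.27). Accordingly 0 or 1 gene was called in those fits.

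On the log2 scale the LPS response of M cells was lower on noTC than on TC dishes for 7 of the 9 genes and higher for none by this test, where 10.6% of all genes had a called dish by LPS difference, 3.11% higher and 7.48% lower. The difference of the responses was -1.47 ± 0.16 for Egr2 (adjusted p = 1.7e-06), -1.30 ± 0.10 for Fosl2, -1.05 ± 0.16 for Fos (adjusted p = 0.00012), -0.79 ± 0.09 for Junb (adjusted p = 3.5e-06), -0.68 ± 0.07 for Atf3 (adjusted p = 1.7e-06) and -0.45 ± 0.08 for Jun (adjusted p = 0.00049). For Jund it was -0.41 ± 0.11 (adjusted p = 0.019), which was lost without the first M-TC (-0.31, adjusted p = 0.15), the first M-TC-LPS (-0.38, adjusted p = 0.075), the second M-noTC (-0.30, adjusted p = 0.16) or the second M-noTC-LPS library (-0.33, adjusted p = 0.11). With library size only it was -0.30 (adjusted p = 0.085). Junb, Atf3 and Jund rose on both dishes, by less on noTC dishes, and Fosl2 rose on TC dishes and was not called on noTC dishes. Jun and Egr2 rose on TC and fell on noTC dishes, and Fos fell on noTC dishes and was not called on TC dishes. Scaled by library size alone, Jun in M-TC was -0.54, and Fosl2 in M-noTC was called as lower, at -0.87 (adjusted p = 3.7e-10). Batf (-0.05 ± 0.24) and Egr1 (-0.41 ± 0.30) were not called. In GM cells Egr1 was the 1 gene whose response differed by dish, by -1.53 ± 0.31 (adjusted p = 0.017; 0.783% of all genes called, 0.192% higher and 0.591% lower). With a value between -1.57 and -1.39 it lost its call without either GM-TC-LPS library (adjusted p = 0.082 and 0.089), the second GM-noTC library (0.11) or either GM-noTC-LPS library (0.070 and 0.051).

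The third comparison is between M and GM cells. At steady state the M cells held less of 8 of the 9 genes on either dish, whereas upon LPS challenge Fos, Egr1, Junb and Atf3 were higher in M cells. On TC dishes 8 genes were lower in M cells and none higher (61.5% of all genes called, 28.9% higher and 32.6% lower). On noTC dishes 8 were lower and 1, Fos, was higher (62.1% called, 30.7% higher and 31.4% lower). Scaled by library size alone, Junb and Egr1 on TC dishes and Jun and Junb on noTC dishes were not called. With LPS 6 were higher and 2 lower on TC dishes (66.8% called, 32.9% higher and 33.9% lower), and 4 were higher and 3 lower on noTC dishes (66.1% called, 32.6% higher and 33.5% lower). The median log2 difference of the 9 genes was -1.18 and -1.13 on TC and noTC dishes at steady state, and 0.58 and 0.10 with LPS, beside -0.02, 0, -0.03 and -0.02 over all tested genes. Neutrophil, dendritic and mast cell markers moved with the growth factor, as given above, and their part in these differences was not tested.

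Egr2 showed the widest gap between the growth factors at steady state, -4.40 ± 0.09 on TC (adjusted p = 1.4e-20) and -3.35 ± 0.08 on noTC dishes (adjusted p = 8.7e-20), or 0.0473 and 0.0979 of the GM level. With LPS the gap was -0.59 ± 0.10 (adjusted p = 2.8e-05) and -0.82 ± 0.10 (adjusted p = 5.7e-07). Fosl2 was lower in M cells in all 4 comparisons, by between -3.18 ± 0.07 on noTC dishes with LPS and -1.89 ± 0.06 on noTC dishes at steady state. Batf was lower in M cells by -1.99 ± 0.15 (adjusted p = 1.4e-10) and -2.76 ± 0.16 (adjusted p = 7.9e-13) at steady state. With LPS it was 0.77 ± 0.11 higher on TC dishes (adjusted p = 1.7e-06) and not called on noTC dishes (-0.20 ± 0.11, adjusted p = 0.12). Jund was lower by -1.18 ± 0.08 and -1.13 ± 0.07 at steady state, and with LPS by -0.53 ± 0.07 on noTC dishes (adjusted p = 1.4e-06) but not by a called amount on TC dishes (-0.08 ± 0.07, adjusted p = 0.34).

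Atf3 turned from lower in M cells, at -1.38 ± 0.05 and -0.76 ± 0.05, to higher with LPS, at 0.58 ± 0.05 and 0.42 ± 0.05. Egr1 did the same on noTC dishes, from -1.56 ± 0.18 (adjusted p = 1.5e-07) to 1.41 ± 0.20 (adjusted p = 1.4e-06). On TC dishes the Egr1 difference at steady state, -0.69 ± 0.27 (adjusted p = 0.030), was lost without either GM-TC library (-0.66 and -0.71, adjusted p = 0.084 and 0.086) or the first M-TC library (-0.32, adjusted p = 0.36), and was -0.38 with library size only (adjusted p = 0.21). Junb differed by -0.41 ± 0.07 on TC and -0.21 ± 0.07 on noTC dishes at steady state. With library size only the former was -0.10 (adjusted p = 0.20) and the latter turned to 0.08, and the latter was not called without the first GM-noTC library (-0.17, adjusted p = 0.087) or the first M-noTC library (-0.16, adjusted p = 0.11). With LPS Junb was 0.98 ± 0.06 (adjusted p = 1.8e-12) and 0.51 ± 0.06 (adjusted p = 9.2e-08) higher in M cells. For Jun the differences were small, -0.46 ± 0.05 and -0.21 ± 0.05 at steady state, the second of which turned to 0.08 with library size only, and 0.20 ± 0.06 with LPS on TC dishes, which was not called without the second GM-TC-LPS library (0.15, adjusted p = 0.064).

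Fos was the gene with the largest excess in M cells upon LPS challenge, 7.17-fold on TC (2.84 ± 0.17, adjusted p = 2e-12) and 7.31-fold on noTC dishes (2.87 ± 0.16, adjusted p = 7e-13). At steady state it differed by -0.25 ± 0.11 on TC dishes, which was not called (adjusted p = 0.063) and turned to 0.06 with library size only, and by 0.47 ± 0.10 on noTC dishes (adjusted p = 0.00024).

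**Figure D5:**
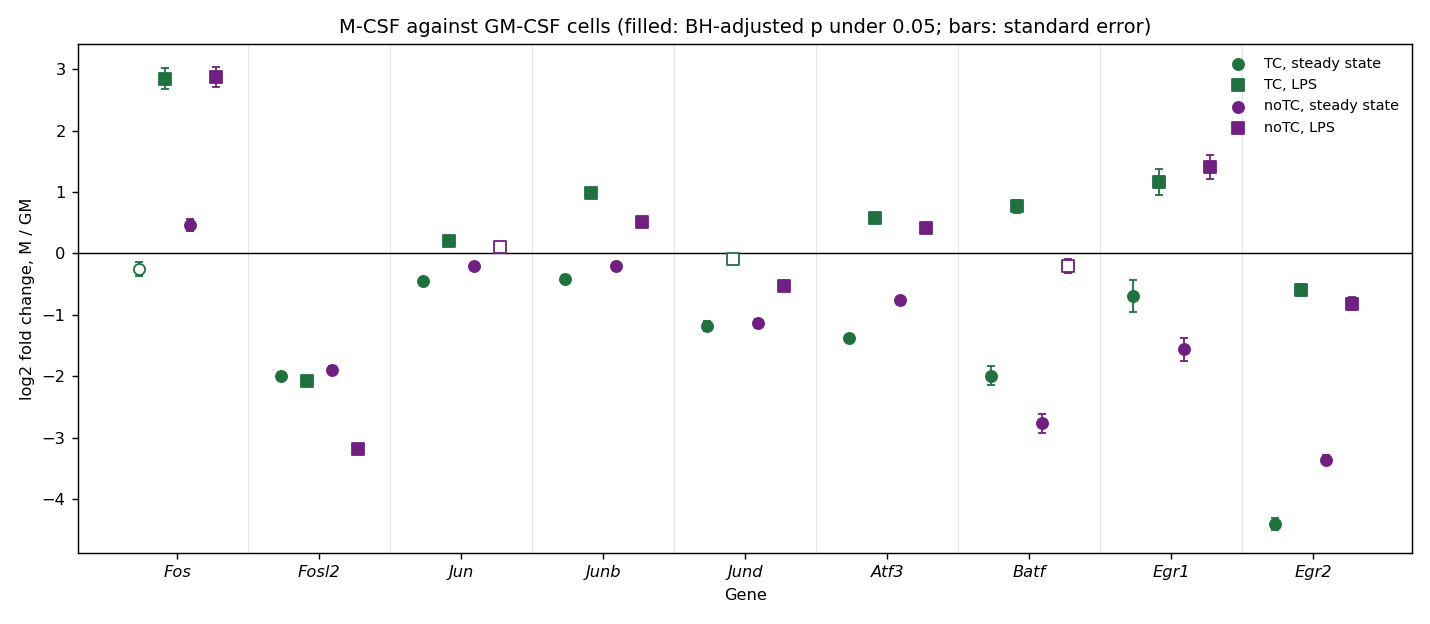
The log2 fold change of M over GM cells is plotted for the 9 tested genes (green TC, purple noTC, circles steady state, squares LPS), with the standard error as bars and filled symbols where the BH-adjusted p was under 0.05. Steady state symbols lie below 0 for Fosl2, Jund, Atf3, Batf, Egr1 and Egr2, and LPS symbols of Fos, Junb, Atf3 and Egr1 lie above 0. With library size only, Fos on TC dishes and Jun and Junb on noTC dishes change sign at steady state.

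At steady state the dish effect itself differed between the growth factors for 5 genes (11.2% of all genes called, 6.4% higher and 4.82% lower). It was higher in M than in GM cells for Egr2 by 1.05 ± 0.13 (adjusted p = 7.3e-06), for Fos by 0.72 ± 0.15 (adjusted p = 0.0026), for Atf3 by 0.61 ± 0.07 (adjusted p = 5.6e-06) and for Jun by 0.24 ± 0.08 (adjusted p = 0.041), and lower for Batf by -0.78 ± 0.24 (adjusted p = 0.035). The calls of Jun and Batf did not survive most fits with 1 library less. Jun was 0.21 to 0.27 (adjusted p between 0.081 and 0.18) without any 1 of the GM-noTC, M-TC or M-noTC libraries, and 0.22 with library size only (adjusted p = 0.066). Batf was -0.81 to -0.63 (adjusted p between 0.055 and 0.14) without any 1 of the M-TC or M-noTC libraries, the first GM-noTC or the second GM-TC library. Without the first GM-TC library Junb was called at 0.30 (adjusted p = 0.016), and without the first M-TC library Egr1 was called at -1.23 (adjusted p = 0.027). Between 3 and 6 genes were called in these fits. With LPS the dish effect was lower in M than in GM cells for 4 genes (10.6% called, 3.71% higher and 6.87% lower): Fosl2 by -1.11 ± 0.09 (adjusted p = 6.4e-08), Batf by -0.97 ± 0.16 (adjusted p = 0.00022), Junb by -0.47 ± 0.08 (adjusted p = 0.00055) and Jund by -0.45 ± 0.10 (adjusted p = 0.0064). Jund was -0.37 without the second M-noTC-LPS library (adjusted p = 0.051).

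At the study's threshold of a fold change above 2 with a p under 0.05, taken here as unadjusted, 4 of the 9 genes passed in the LPS response of GM-TC, 5 in that of GM-noTC, 7 in that of M-TC and 4 in that of M-noTC, beside 26.6%, 26.3%, 36.1% and 32.5% of all genes. For the dish at steady state Egr1 passed in GM cells (2.73% of all genes), and Fos and Egr2 in M cells (4.32%). With LPS none passed in GM cells (1.16%) and Fosl2 passed in M cells (2.83%). For the dish with LPS a fold change above 1.5 was also used in the study, and at that threshold, an alternative chosen after seeing the data, none passed in GM (2.58% of all genes) and Fosl2 and Batf passed in M cells (7.32%). Between M and GM cells 5 passed on TC (22.2%) and 5 on noTC dishes (22.6%) at steady state, and 3 (25.5%) and 3 (25%) with LPS. Of the differences between responses, those of 1 gene in GM (1.55%) and 3 genes in M cells (2.57%) passed for dish by LPS, 7 on TC (13.9%) and 6 on noTC dishes (11.5%) for growth factor by LPS, and 1 gene each for dish by growth factor at steady state (3.25%) and with LPS (2.92%).

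Other genes of the pathway were followed in 4 lists. Of 18 other AP-1 and related bZIP factors, 9 rose and 7 fell upon LPS challenge in GM-TC, and 10 rose and 4 fell in GM-noTC. In M cells 10 rose and 3 fell on TC dishes and 8 rose and 6 fell on noTC dishes. Over all tested genes 32.8%, 33.6%, 37.6% and 36.4% rose and 34.2%, 34%, 36.4% and 35.9% fell in the same order, which is the background for the counts of these lists. Batf2, an interferon-induced relative of BATF, rose in all 4 states, by 4.52 to 5.77 on the log2 scale, for example from 1.06 and 1.05 CPM to 44.0 and 47.6 CPM in GM-TC. The small MAF proteins Maff (3.17 to 4.66) and Mafk (2.16 to 3.05) rose as well. Ddit3, the stress factor CHOP, changed by between -1.64 and -0.96.

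Of 20 tested immediate early genes outside the 10 (21 listed), 12 rose and 3 fell in GM-TC, and 12 rose and 4 fell in GM-noTC. In M cells 13 rose and 2 fell on TC dishes and 10 rose and 6 fell on noTC dishes. Nr4a3, an orphan nuclear receptor, went from 11.3 and 10.6 CPM to 306 and 327 CPM in GM-TC and from 0.0399 and 0.112 CPM, at or under 3 counts, to 51.5 and 65.2 CPM in M-TC. Gadd45b, a stress adaptor that acts on MAP kinase signalling, rose by 3.96 to 4.97 on the log2 scale and Csrnp1 by 2.84 to 4.46. Nr4a3, Gadd45b and Csrnp1 were named for their rise in all 4 LPS responses, so their high level at 3 h in GM cells follows from that choice. Fos and Egr2 were called as lower with LPS in the same cells, as were 3 genes of this list in GM-TC and 4 in GM-noTC.

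Of 26 genes for SRF, its cofactors and MAP kinases, 11 to 15 rose and 6 to 10 fell upon LPS challenge in the 4 states, with medians of 0.12 to 0.17 on the log2 scale. Between 17 and 24 of the 26 were thus called, where 67% to 74% of all tested genes were. Mapkapk2, a kinase downstream of p38, rose by 2.67 to 2.86, from 193 and 197 CPM to 1411 and 1429 CPM in GM-TC. Map3k8, the kinase that links TLR4 to ERK, rose by 2.59 to 2.85, and Map2k4, which acts on JNK, by 1.52 to 2.36. Map2k6, which acts on p38, changed by between -4.29 and -2.73 from low levels, and Map3k1, upstream of JNK, by between -2.16 and -0.70. Among 4 corepressors of EGR proteins and partners of BATF, Irf8 rose by 0.61 to 2.05 and Nab1 by 0.62 to 1.42 in all 4 states.

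At steady state in M cells 6 of the 20 immediate early genes were higher and 2 lower on noTC dishes, and 4 higher and 2 lower of the 18 bZIP factors, where 16.1% of all tested genes were higher and 11.1% lower. Upon LPS challenge 1 immediate early gene was higher and 9 lower in M cells on noTC dishes, and 2 bZIP factors were higher and 6 lower, where 10.4% of all were higher and 12.9% lower. The LPS response of M cells was lower on noTC dishes for 11 of the 20 immediate early genes and for 4 of the 18 bZIP factors, and higher for none of either list by this test (7.48% of all lower and 3.11% higher), with medians of -0.79 over the former and -0.02 over all tested genes. Between the growth factors at steady state, 11 immediate early genes were lower in M cells on TC dishes and 11 on noTC dishes, and 4 and 3 were higher, where 32.6% and 31.4% of all tested genes were lower and 28.9% and 30.7% higher.

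For each of the 9 tested genes the 2 genes with the most similar course over the 8 group means were found among 9202 genes, by Pearson's r of log2(CPM + 0.5). These values describe 8 points that share their libraries. Nearest to Junb were Iqgap1 and Dusp16 (both r = 0.998), nearest to Egr2 were Cyb5b (r = 0.998) and Itpr2 (r = 0.989), and nearest to Atf3 were Sarnp and Snn (both r = 0.991). Fos had Nin (r = 0.979) and Cdkal1 (r = 0.978), Fosl2 had Cd1d1 and Ptpn12 (both r = 0.984), and Batf had Tfec and Arhgap26 (both r = 0.984). Jund had Zyx (r = 0.987) and Kcna3 (r = 0.986). Jun had Eif5 (r = 0.914) and Kctd20 (r = 0.884), and Egr1 had Htt (r = 0.918) and Klhdc10 (r = 0.912), so these 2 had the least close neighbours. Among the 9 themselves Atf3 and Batf were the closest pair (r = 0.932), followed by Junb and Atf3 (r = 0.918), and Fos and Fosl2 ran most opposite (r = -0.756).

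The order of the levels differed between the genes. Fos was highest in M-noTC, then GM-noTC, and its next 4 groups, from GM-TC to M-TC, lay within 12.9 to 15.3 CPM, where the libraries of GM-TC, M-noTC-LPS and M-TC-LPS overlap in part. Egr2 was highest in GM-noTC and GM-TC and then dropped 6.63-fold to GM-TC-LPS, which overlaps with GM-noTC-LPS. Junb had its 4 LPS groups above its 4 steady state groups, with a step of 3.83-fold between GM-TC-LPS and GM-noTC, and so had Atf3, with a step of 1.45-fold between GM-noTC-LPS and GM-TC. Fosl2 had the 4 GM groups above the 4 M groups, with a step of 1.77-fold between GM-TC and M-TC-LPS. Egr1 was highest in M-noTC-LPS and GM-noTC, and lowest in M-TC.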

How the data were processed

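RNA-seq was analysed in 16 libraries, 2 in each of 8 groups taken from the sample labels. Per the study's methods, the authors cleaned the reads, aligned them with HISAT2 and quantified genes with RSEM, and tested differences with DESeq2 at a p under 0.05 and a fold change above 2 or 1.5. The submitters' processing notes also name fastp 0.18.0, Bowtie2 2.2.8 and StringTie 1.3.1. The genome build and the annotation release behind the table are not given in the sources used here. The library kit does not mark strand, so genes that overlap on opposite strands (Jun and Junos, Junb and Prdx2, Jund and Gm11175, Atf3 and Gm24748 in GENCODE M21) share reads that cannot be told apart. The deposited values are expected counts per gene, not normalized, of which 6.56% to 8.19% per library were not whole; they were rounded to whole numbers.

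Counts were scaled by TMM and tested in edgeR 4.0.16 (R 4.3.3) with the quasi-likelihood test on all 16 libraries, with 1 coefficient per group and no covariate. Of 22287 genes, 12514 passed edgeR's filter on low counts, and p-values were adjusted over them by the method of Benjamini and Hochberg (BH); a gene was called at an adjusted p under 0.05. Differences between responses were tested as contrasts in the same fit. The script was tested on simulated data. Group levels are means of TMM scaled CPM, and levels per kb were divided by the exon union length in GENCODE M21. The alternatives were DESeq2's size factors, library size only, no filter, DESeq2 1.42.0, only the libraries of a comparison, a replicate block, the study's threshold of 2-fold, that of 1.5-fold for the dish with LPS (chosen after seeing the data), subtraction of a share of the other libraries from the noTC libraries at steady state, and leaving out each library in turn (15 libraries in the fit, the lone library of a group being assumed to vary like the other groups). Promoter windows were taken from RefSeq. The 10 genes and the lists were chosen with earlier results of these data known. Named genes of the lists were, among genes of at least 1 CPM called in 1 direction in all 4 LPS responses, the 3 with the largest mean rise and the 2 with the largest mean fall of each list; genes with a similar course had a mean of at least 5 CPM. A gene that this rule names is not reported here.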

Additional observations from a re-analysis of the deposited data

Results flagged for a closer look

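Of 54 tests of whether an effect on one of the 9 genes differed between cell states, 34 were called in edgeR's quasi-likelihood test (BH-adjusted over all tested genes). Values are differences of log2 fold changes. The 6 families of tests reuse the same 16 libraries.

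The LPS response was higher in M than in GM cells on TC dishes for Egr2 (3.81), Fos (3.09), Batf (2.75), Atf3 (1.96), Egr1 (1.85), Junb (1.39), Jund (1.10) and Jun (0.66). On noTC dishes it was higher for Egr1 (2.97), Batf (2.56), Egr2 (2.54), Fos (2.40), Atf3 (1.18), Junb (0.72), Jund (0.60) and Jun (0.31), and lower for Fosl2 (-1.28). For Egr2 and Fos the difference came with a fall in GM cells, and for Atf3, Batf and Junb with rises of unequal size.

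The LPS response was lower on noTC than on TC dishes in M cells for Egr2 (-1.47), Fosl2 (-1.30), Fos (-1.05), Junb (-0.79), Atf3 (-0.68), Jun (-0.45) and Jund (-0.41), and in GM cells for Egr1 (-1.53). Of these, the calls of Jund in M cells and Egr1 in GM cells were not stable under the alternatives, as given above. For Fos and Egr2 in M cells the noTC dish had the higher level at steady state, and with LPS the dishes lay closer together.

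The effect of the noTC dish at steady state was higher in M than in GM cells for Egr2 (1.05), Fos (0.72), Atf3 (0.61) and Jun (0.24), and lower for Batf (-0.78). Here the calls of Jun and Batf were not stable under the alternatives. With LPS it was lower in M cells for Fosl2 (-1.11), Batf (-0.97), Junb (-0.47) and Jund (-0.45).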

How the results depend on the processing

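Of 162 results of single genes, 123 kept their call under every alternative other than the study's threshold and 39 did not. At the study's threshold of 2-fold, 58 lost their call. The cause of the changes was not tested. The fits that leave 1 out differ both in the number of libraries and in the values that enter. The groups hold 2 libraries each, and counts of Egr1 and Fosb were low.

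At the study's threshold (fold change above 2 and p under 0.05, taken as unadjusted) the number of genes called was 4 in the LPS response of GM-TC, 5 in GM-noTC and 4 in M-noTC. It was 1 for the dish in GM, 2 in M, 0 in GM-LPS and 1 in M-LPS. Between M and GM it was 5 on TC, 5 on noTC, 3 on TC with LPS and 3 on noTC with LPS. It was 3 for dish by LPS in M, and 1 each for dish by growth factor at steady state and with LPS. At 1.5-fold, chosen after seeing the data, it was 0 for the dish in GM-LPS and 2 in M-LPS.

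With library size only, the sign turned for Jund (-0.18) and Egr1 (-0.18) in the LPS response of GM-TC, Jund in GM-noTC (-0.12), and Fos (-0.74) and Jun (-0.54) in M-TC. It also turned for Fos between M and GM on TC dishes (0.063), Jun (0.079) and Junb (0.0835) on noTC dishes, Batf in dish by LPS in M (0.048), and Jun in dish by growth factor with LPS (0.001). DESeq2's size factors turned Fos in dish by growth factor with LPS (-4e-04). Subtraction of a share of the other libraries turned Batf in dish by LPS in M (0.013) and left 0 genes called for dish by LPS in GM, where Egr1 was -1.54 (adjusted p = 0.052). With only the libraries of the comparison 3 genes were called for dish by growth factor at steady state.

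Leaving out 1 library gave 1 to 4 genes for the dish in GM, 5 to 8 in M, 0 to 1 in GM-LPS, 0 to 1 for dish by LPS in GM and 3 to 6 for dish by growth factor at steady state. Signs turned only for differences that were not called. Batf ranged from -0.27 to 0.028 for the dish in GM, from -0.13 to 0.20 in GM-LPS, from -0.018 to 0.32 for dish by LPS in GM and from -0.12 to 0.009 in M. Fos ranged from -0.15 to 0.45 for the dish in GM-LPS, from -0.010 to 0.32 in M-LPS and from -0.29 to 0.31 for dish by growth factor with LPS. Atf3 ranged from -0.090 to 0.0052 for the dish in GM-LPS, and Jund from -0.052 to 0.14 for dish by growth factor at steady state.

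Replicate numbers did not pair the libraries (correlations of replicate deviations between -0.0636 and 0.0361). With the replicate block the dish difference of Egr1 in M-LPS was 0.51 (adjusted p = 0.052), so 5 genes were called there in place of 6, and no other call changed.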

Other observations

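A few genes outside the 10, chosen after their values were seen, are given as values from the same edgeR fit. Myc, a growth-related transcription factor and early gene, went the way of Fos and Egr2 in GM cells, with an LPS response of -1.70 in GM-TC and -2.38 in GM-noTC on the log2 scale. In M cells Myc rose by 2.02 on TC dishes and changed by -0.81 on noTC dishes, a difference of -2.83 ± 0.18 (adjusted p = 1.2e-09). At steady state Myc was 1.76 higher on noTC dishes in M cells (adjusted p = 1.6e-09), and with LPS it was -1.07 (adjusted p = 2.4e-06).

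Nr4a1, an orphan nuclear receptor of the early response, rose in GM cells, by 1.67 ± 0.44 in GM-TC and 2.13 ± 0.42 in GM-noTC (adjusted p = 0.0022 and 0.00013). In M cells Nr4a1 changed by -0.85 ± 0.39 on TC dishes, which was not called (adjusted p = 0.054), and by -2.29 ± 0.41 on noTC dishes (adjusted p = 3.1e-05). Its response was thus lower in M than in GM cells, by -2.52 ± 0.59 on TC (adjusted p = 0.0015) and -4.43 ± 0.59 on noTC dishes (adjusted p = 2.7e-06), where 8 of the 9 genes described above had a higher one. The standard errors of Nr4a1 were larger than those of Egr1 in the same tests. Nr4a1 was not followed in the fits with a library left out.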
